A study of Rattus norvegicus with 20 samples.

Results

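The genes described here are 10 components of vascular endothelial growth factor (VEGF) signalling and of the cerebral cavernous malformation (CCM) complex, measured by RNA-seq in the medial prefrontal cortex (mPFC) of rats given LSD or saline for months. The members are the ligands Vegfa, Vegfb and Vegfc, the receptors Flt1, Kdr and Nrp1, and the CCM genes Ccm2, Krit1, Pdcd10 and Heg1. They are 10 of the 31038 gene symbols in the count matrix, and all 10 passed the filter on low counts, as did 16605 genes in all. The group of genes was picked because Ccm2 and Vegfb showed some of the strongest decreases in the comparison of LSD with saline, so the differences of the members between the treatments are given below as a description, without p-values.

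The 20 animals were male Sprague-Dawley rats, aged 6 to 8 weeks and weighing 180 to 200 g when treatment started, all housed singly. The 10 LSD rats received 0.16 mg/kg of LSD intraperitoneally every other day for 90 days, and the 10 control rats received saline on the same schedule. According to the series description the tissue was taken after 3 weeks without treatment, whereas the methods of the study give a longer interval and older animals at the start. One library of poly(A) RNA was sequenced per rat, with 16346629 to 25552681 gene reads per LSD rat (median 20271086) and 11098076 to 24201351 per saline rat (median 16815424). Markers of cortical neurons were present as the tissue label implies, with medians of 127 and 129 RPM (read counts scaled to a common library size) for Tbr1 in LSD and saline rats, while the summed level of 3 choroid plexus markers did not exceed 4.83 RPM in any rat. The 5 striatal neuron markers, genes of the neighbouring striatum also expressed at lower levels in cortex, were detected in every rat. Their summed level was 411 RPM in LSD replicate 9 and 458, 571 and 534 RPM in saline replicates 2, 8 and 9, and at most 310 RPM in the other 16 rats. All 5 had lower values in LSD rats, from −0.27 to −1.06 on the log2 scale (Adora2a −1.06, edgeR adjusted p = 0.0671), and none passed the threshold. With log2 library size as a covariate, added after seeing the data, 4 of the 5 were called lower. Without the 4 rats with high sums, a fit also chosen after seeing the data, Adora2a was called lower (−0.50, edgeR adjusted p = 0.0183). That fit stands beside the results of the members.

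VEGF-A, made in the brain largely by astrocytes and neurons, binds the receptors encoded by Kdr and Flt1 on endothelial cells; Kdr carries most of the signal for vessel growth and permeability, and Flt1 binds the ligand tightly while signalling weakly. VEGF-B binds Flt1 and the co-receptor neuropilin 1 (Nrp1) but not Kdr, and VEGF-C is best known for its action on lymphatic vessels. Ccm2 encodes the scaffold that joins KRIT1 and PDCD10 in the CCM complex, the membrane protein HEG1 holds KRIT1 at endothelial junctions, and the complex restrains the kinase MEKK3 and the transcription factors KLF2 and KLF4; loss of CCM2, KRIT1 or PDCD10 in brain endothelium gives rise to cavernous malformations. Many of these genes are also expressed outside vessels to some degree, and in bulk tissue fewer cells of a type cannot be told apart from less RNA per cell.

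The 250 bases upstream of the annotated start are shown for Ccm2 and Vegfb, whose levels moved together between rats, and for Heg1, which stood higher in LSD rats. The sequences were taken from RefSeq on the GRCr8 assembly, a later build than the rn6 genome used for the counts, and entries were found for 9 of the 10 members. Capitals mark GC boxes, the 6 letters GGGCGG on either strand, the motif that Sp-family transcription factors recognise.
Ccm2, chr14:85632203-85632452, plus strand: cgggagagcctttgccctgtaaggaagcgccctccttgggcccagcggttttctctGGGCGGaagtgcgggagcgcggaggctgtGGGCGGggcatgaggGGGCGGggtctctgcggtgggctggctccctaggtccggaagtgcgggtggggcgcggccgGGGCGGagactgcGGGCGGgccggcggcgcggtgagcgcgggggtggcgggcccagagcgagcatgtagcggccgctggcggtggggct
Vegfb, chr1:213607153-213607402, minus strand: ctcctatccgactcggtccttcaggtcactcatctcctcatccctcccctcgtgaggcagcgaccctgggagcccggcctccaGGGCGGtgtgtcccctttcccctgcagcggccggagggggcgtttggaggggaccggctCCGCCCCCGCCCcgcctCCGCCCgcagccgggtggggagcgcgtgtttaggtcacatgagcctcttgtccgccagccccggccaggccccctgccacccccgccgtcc
Heg1, chr11:80600093-80600342, minus strand: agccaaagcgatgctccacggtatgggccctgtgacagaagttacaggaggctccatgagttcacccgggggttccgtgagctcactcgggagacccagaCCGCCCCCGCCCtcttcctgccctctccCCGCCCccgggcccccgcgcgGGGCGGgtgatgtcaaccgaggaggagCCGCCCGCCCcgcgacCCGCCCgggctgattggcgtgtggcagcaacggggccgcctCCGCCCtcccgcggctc
The Ccm2 stretch held 5 GC boxes, that of Vegfb held 4 and that of Heg1 held 8, counting matches that overlap by some bases separately. Of 33469 rat promoter stretches of the same length, 30.5% held at least 1 GC box and 7.41% held 3 or more. The stretches of Ccm2, Vegfb and Heg1 were 76%, 73.2% and 72.8% G or C, against a median of 51.2% over all promoters. Among the other members, Flt1 held 3 GC boxes, Vegfa 3 and 0 in its 2 entries, Vegfc 2, Kdr and Pdcd10 1 each and Nrp1 0. Whether the GC boxes bear on the differences between LSD and saline rats was not tested. The core letters ACGTG of the hypoxia response element occurred in none of the 3 stretches on either strand, and were found in 16.6% of all promoters. The core letters GCGTG had 1 match each in Vegfb and Heg1 and none in Ccm2, against 25.9% of all promoters with a match; a match describes the sequence only and is not a binding site.

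Across all genes, 2494 of 16605 passed an adjusted p of 0.05 in edgeR's quasi-likelihood test, which is 15.0% of those tested, with 1418 lower in LSD rats (8.54%) and 1076 higher (6.48%). Among the members, Ccm2 and Vegfb were called lower and Heg1 and Krit1 higher, while the other 6 did not pass. Since the members were chosen from this comparison, nothing is read from that count against the background. When all genes with lower expression in LSD rats were ranked by p-value, Ccm2 stood in place 2 and Vegfb in place 5. Around them stood Bok in place 1 with a log2 fold change of −0.50, Atp5l in place 3 with −0.51, Dpf1 in place 4 with −0.34 and Gpr12 in place 6 with −0.41. With scaling by total counts alone the split of calls over all genes turned to 858 lower and 1504 higher, and with offsets for genomic span it was 1129 lower and 558 higher. The split was 836 lower and 960 higher without the filter on low counts.

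Of the ligands, Vegfb was lower in LSD rats and Vegfa and Vegfc did not differ detectably. Vegfb, the ligand of Flt1 that is most abundant in tissues with high oxidative metabolism, ranged from 43.0 RPM to 52.8 RPM in LSD rats with a median of 46.4 RPM. In saline rats it ranged from 52.3 RPM to 67.3 RPM with a median of 60.2 RPM. The groups overlapped only at their edges, with 9 of 10 LSD rats below the lowest saline rat and 9 of 10 saline rats above the highest LSD rat. The log2 fold change, LSD against saline, was −0.34 (SE 0.053, n = 10 and 10), from 665 to 1313 reads per rat.

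Vegfa, the main growth factor of blood vessels, ranged from 70.5 RPM to 106 RPM in LSD rats (median 100.04) and from 76.2 RPM to 119 RPM in saline rats (median 98.4). The log2 fold change was −0.03 (SE 0.077), less than the spread between rats, and both groups covered nearly the same range. Vegfc, the lymphatic ligand, was measured from only 32 to 79 reads per rat. Its level ranged from 2.61 RPM to 3.70 RPM in LSD rats (median 2.93) and from 2.27 RPM to 4.63 RPM in saline rats (median 3.08), with a log2 fold change of −0.06 (SE 0.12). It was the least precisely measured of the 3 ligands. The sign for Vegfa and Vegfc was not stable, as it turned positive when library size was added as a covariate, at 0.015 for Vegfa and 0.026 for Vegfc.

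None of the receptors passed the threshold. Flt1, the high-affinity receptor for VEGF-A and VEGF-B, ranged from 66.1 RPM to 88.5 RPM in LSD rats (median 72.3) and from 63.8 RPM to 85.9 RPM in saline rats (median 73.9). Its log2 fold change was 0.00 (SE 0.060), and the groups lay on top of each other. Kdr, the principal signalling receptor, ranged from 10.6 RPM to 16.1 RPM in LSD rats (median 11.6) and from 10.7 RPM to 16.8 RPM in saline rats (median 13.8).

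For Kdr 8 of the 10 LSD rats lay below the saline median, and the log2 fold change was −0.16 (SE 0.091). Nrp1, the co-receptor for VEGF-A and VEGF-B and also a receptor for semaphorins on neurons, ranged from 27.7 RPM to 37.9 RPM in LSD rats (median 30.5) and from 20.4 RPM to 35.3 RPM in saline rats (median 28.2). Of the LSD rats, 9 lay above the saline median, with a log2 fold change of 0.12 (SE 0.081). The lower level of Vegfb was measured beside levels of its receptors Flt1 and Nrp1 that were not shown to differ.

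**Figure D1:**
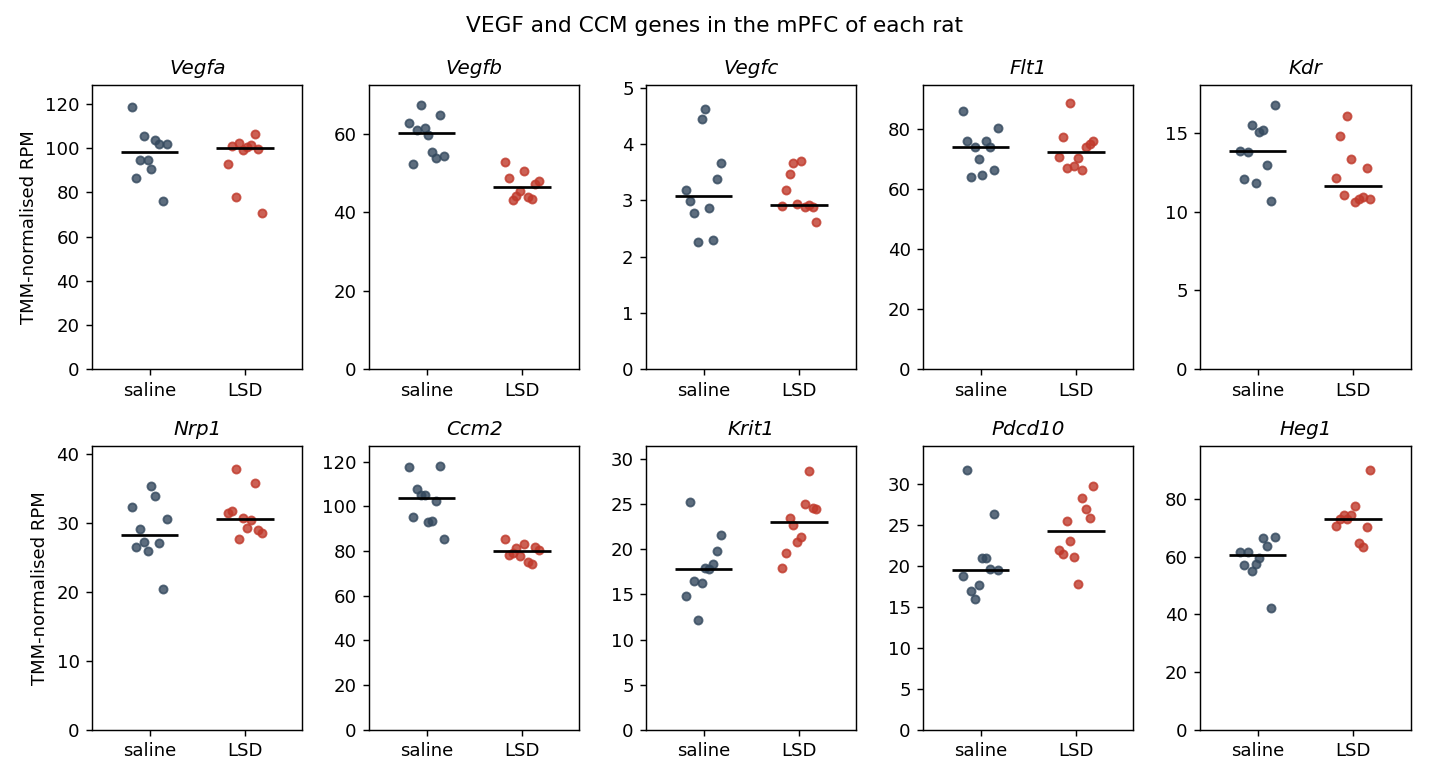
TMM-normalised RPM (vertical axis, from 0) of the 10 member genes in the 10 saline rats (dark points) and the 10 LSD rats (red points), with black bars at the group medians. Ccm2 and Vegfb sit lower in LSD rats, with 9 of 10 LSD rats below the lowest saline rat for each, and 8 of 10 LSD rats lie above the highest saline rat for Heg1.

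The genes of the CCM complex did not differ in one direction. Ccm2, the scaffold of the complex, was lower in LSD rats, Heg1 and Krit1 were higher, and Pdcd10 did not pass the threshold. Ccm2 ranged from 74.4 RPM to 85.4 RPM in LSD rats with a median of 79.9 RPM. In saline rats it ranged from 85.2 RPM to 118 RPM with a median of 104 RPM.

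For Ccm2, 9 of 10 LSD rats lay below the lowest saline rat and all 10 below the saline median, and the log2 fold change was −0.36 (SE 0.054). The LSD rats were also closer to each other, with an SD of 3.45 RPM against 10.7 RPM in saline rats, or 0.062 against 0.15 on the log2 scale; the difference in spread was not tested. Leaving out each rat in turn gave log2 fold changes from −0.38 to −0.33 for Ccm2 and from −0.36 to −0.32 for Vegfb, which describe values that selected these genes.

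Heg1, the transmembrane anchor of KRIT1, ranged from 63.4 RPM to 90.0 RPM in LSD rats (median 73.1) and from 42.2 RPM to 66.8 RPM in saline rats (median 60.7). All 10 LSD rats lay above the saline median and 8 above the highest saline rat. The log2 fold change was 0.31 (SE 0.071). It passed the threshold in each of the 20 fits that left out a rat, with values from 0.26 to 0.33. These fits repeat the comparison from which the members were chosen, so they describe the value and are no support.

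Krit1, which binds HEG1 and the small GTPase RAP1, ranged from 17.96 RPM to 28.6 RPM in LSD rats (median 23.1) and from 12.1 RPM to 25.2 RPM in saline rats (median 17.9), with 171 to 725 reads per rat. All 10 LSD rats lay above the saline median, though only 1 lay above the highest saline rat, and the log2 fold change was 0.34 (SE 0.10). The call was lost without LSD replicate 8 (0.30) or without saline replicate 1 (0.31), 3 (0.32) or 5 (0.32), and it was kept in the other 16 fits that left out a rat. Pdcd10, the partner of CCM2 that also binds the STE20-like kinases, ranged from 17.7 RPM to 29.7 RPM in LSD rats (median 24.3) and from 15.9 RPM to 31.7 RPM in saline rats (median 19.5). Its log2 fold change was 0.21 (SE 0.11), it did not pass the threshold, and 9 of 10 LSD rats lay above the saline median. Of the fits that left out a single rat, it passed only in that without saline replicate 2, at 0.30.

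For all 10 members the range of the LSD rats overlapped that of the saline rats. Groups that do not overlap were found for 32 of the 16605 genes, or 0.193%.

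Library size moved with the levels of Krit1 and Pdcd10. Within the treatment groups, with each gene centred on its group mean, Krit1 correlated with the log2 number of reads on genes at Pearson r = 0.80 and Spearman's coefficient of 0.89 over 20 rats (permutation tests with 100000 resamples within groups, adjusted p = 0.0049 and 0.00035 over 70 relations of the members with library size and marker sums). For Pdcd10 r was 0.81 and Spearman's coefficient 0.87 (permutation tests, adjusted p = 0.0035 and 0.00035). The adjusted values for Spearman's coefficient rest on the smallest p that the resamples can give. Rats with larger libraries thus had higher RPM values of both genes.

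The correlation held in each group, at 0.90 in LSD and 0.75 in saline rats for Krit1 and at 0.83 and 0.80 for Pdcd10. It was also seen without the 2 rats farthest from the median library size, at 0.90 for Krit1 and 0.85 for Pdcd10. Over all genes tested, 5.64% had a larger absolute r with library size than Krit1 and 4.43% a larger one than Pdcd10. Vegfb had r = −0.60 and Spearman's coefficient of −0.63, and Ccm2 r = −0.40 and Spearman's coefficient of −0.54, and neither passed the adjustment (permutation tests, adjusted p = 0.107 and 0.0703 for Vegfb, 0.377 and 0.147 for Ccm2). In LSD and saline rats r was −0.68 and −0.55 for Vegfb, and −0.74 and −0.32 for Ccm2.

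LSD libraries were larger on the whole, so library size and treatment overlap in these samples. With log2 library size as a covariate, an alternative chosen after seeing the data, the log2 fold change of Krit1 was 0.11 and that of Pdcd10 was −0.04, and neither passed the threshold. In the same fit Ccm2 was at −0.30, Vegfb at −0.26 and Heg1 at 0.33. The call for Heg1 was kept in that fit. With reads drawn at random down to the smallest library Krit1 was at 0.30 and its call was lost, and Heg1 was at 0.32 and kept its call. Without the 4 rats with high striatal markers Ccm2 was at −0.35, Vegfb at −0.37, Heg1 at 0.26, Krit1 at 0.44 and Pdcd10 at 0.36, and Pdcd10 then passed the threshold. The part of striatal tissue and of library size in the differences of the members was not tested.

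**Figure D2:**
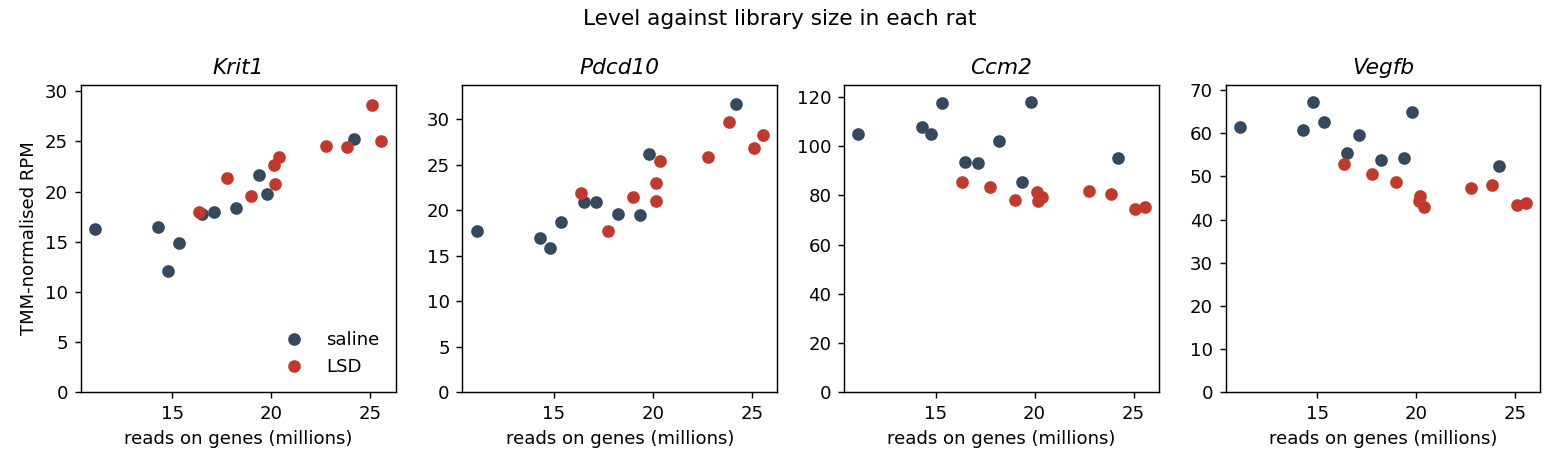
TMM-normalised RPM (vertical axes, from 0) of Krit1, Pdcd10, Ccm2 and Vegfb against the number of reads on genes (horizontal axes, scaled as labelled), 1 point per rat, saline rats dark and LSD rats red. Krit1 and Pdcd10 rise with library size in both groups along about the same line (r = 0.80 and 0.81 within groups), while LSD rats lie below saline rats of similar library size for Ccm2.

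The fold changes of all genes also rose with the genomic span of the gene, the distance from its start to its end in the annotation (Spearman's coefficient of 0.36 across 14924 genes, which are not independent replicates). Vegfb spans 5685 bases and Ccm2 45679 bases, on either side of the median of 24516 bases over the genes kept. After offsets that remove each rat's trend with span, Ccm2 was at −0.42, Vegfb at −0.27, Heg1 at 0.23 and Krit1 at 0.30, and the call for Krit1 was lost. Flt1, at 171701 bases, then had a log2 fold change of −0.10 in place of 0.00.

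How the members varied among rats of the same treatment does not use the difference that selected them. Of the 45 pairs of members, 3 passed an adjusted p of 0.05 by both Pearson's r and Spearman's coefficient over the 20 rats centred on their group means. Ccm2 and Vegfb, a scaffold and a secreted ligand, correlated at r = 0.68 and Spearman's coefficient of 0.75 (permutation test, p = 0.00193 and 0.00061, adjusted p = 0.0289 and 0.0137 over 45 pairs). Rats with more Ccm2 RNA had more Vegfb RNA in both groups, with r = 0.75 in LSD and 0.70 in saline rats.

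Without the 2 rats farthest from the median of Ccm2 the correlation was 0.65, and with library size removed from both genes it was 0.60. Krit1 and Pdcd10, partners in the complex, correlated at r = 0.78 and Spearman's coefficient of 0.81 (permutation test, adjusted p = 0.0081 and 0.00495). With library size removed from both, that correlation was 0.36. Vegfb and Krit1 correlated negatively, at r = −0.74 and Spearman's coefficient of −0.67 (permutation test, adjusted p = 0.0081 and 0.0381), and at −0.54 with library size removed.

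Ccm2 and Krit1 themselves, which encode proteins in direct contact, had r = −0.49, and 17 of the 45 pairs were positive. All pairs share the same libraries.

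**Figure D3:**
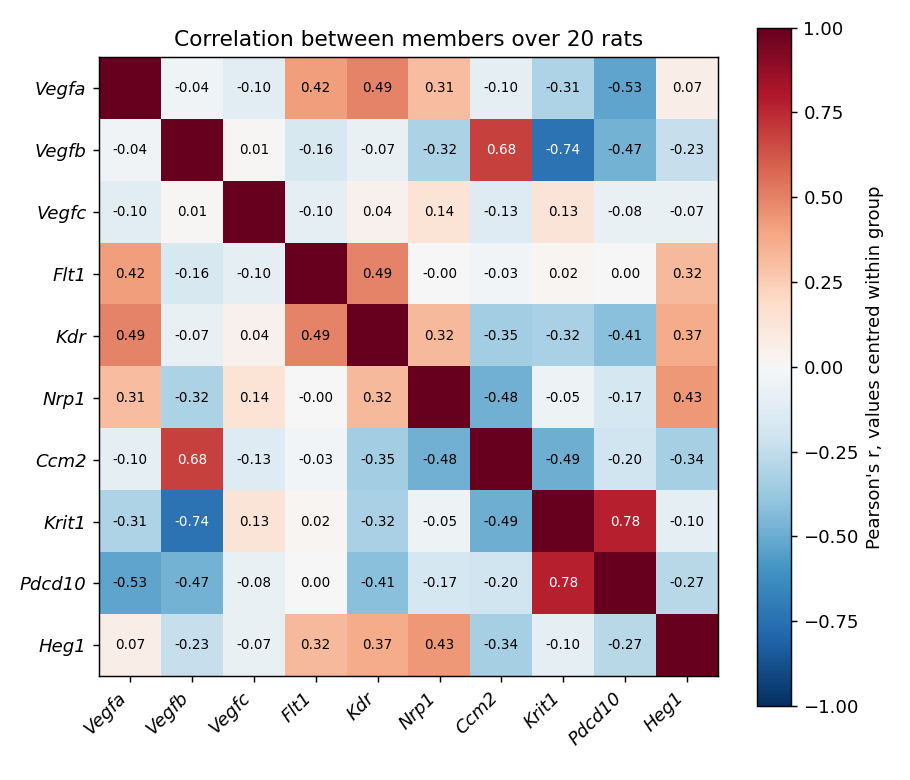
Pearson's r between each pair of the 10 member genes over 20 rats, from log2 values centred on the mean of each treatment group; red is positive, blue negative, and the value is printed in each square. The positive pairs Ccm2 with Vegfb (0.68) and Krit1 with Pdcd10 (0.78) and the negative pair Vegfb with Krit1 (−0.74) stand out from the rest.

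The correlation of Ccm2 with Vegfb was one of many of its size. By the same within-group measure over 20 rats, the genes most like Ccm2 included Aldoc (r = 0.90), an astrocyte-enriched glycolytic enzyme, Tmem160 (0.87), the mitochondrial ribosomal protein gene Mrps34 (0.87) and Nfkbib (0.87), an inhibitor of NF-kappaB. Vegfb ranked 462 among all genes by likeness to Ccm2. Those most like Vegfb were Bckdha (0.94), a subunit of the mitochondrial enzyme that breaks down branched-chain amino acids, Ubald2 (0.90), Bsg (0.89), which encodes the endothelial and neuronal surface protein basigin, Sgca (0.89) and Yif1a (0.89), and Ccm2 ranked 614 by likeness to Vegfb.

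The protein-coding genes on either side of Ccm2 and Vegfb in the GRCr8 annotation, looked at after the members' values were seen, did not pass the threshold. Nacad and Myo1g beside Ccm2 had log2 fold changes of −0.13 and −0.04 (edgeR adjusted p = 0.269 and 0.912). Dnajc4 and Fkbp2 beside Vegfb had −0.07 and −0.13 (edgeR adjusted p = 0.556 and 0.171).

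Beyond the members, 93 further genes of the VEGF, CCM, hypoxia and angiogenic pathways were in the matrix and 89 passed the count filter. Of these, 10 were called higher in LSD rats (11.2%) and 6 lower (6.74%), against 6.48% and 8.54% of all genes, and their median log2 fold change was −0.02 against 0.00 over all genes. With library size as a covariate 1 was called higher and 3 lower, and with offsets for span the balance turned to 4 higher and 8 lower. Over all 16605 genes, 534 were called higher and 639 lower with library size, and 558 and 1129 with span offsets. Without the 4 rats with high striatal markers 13 of the pathway genes were called higher and 8 lower, against 1691 and 1673 of all genes.

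Among the remaining ligands and receptors no gene passed. Placental growth factor Pgf had a log2 fold change of 0.08 (SE 0.18), Flt4, the receptor of VEGF-C, had 0.06 (SE 0.12) and Nrp2 had −0.11 (SE 0.14). Of 28 transducers of the VEGF signal that passed the count filter, 4 rose (14.3%) and 3 fell (10.7%), against 6.48% and 8.54% of all genes. With span offsets 1 was called higher and 6 lower, against 558 and 1129 of all 16605 genes. With library size as a covariate 1 was called higher and 1 lower, against 534 and 639 of all genes. The kinases Pik3cb (0.27, edgeR adjusted p = 0.00917), Prkca (0.24, adjusted p = 0.0134) and Prkcb (0.30, adjusted p = 0.0134) were among those that rose.

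Those that fell were the ERK kinase Mapk3 (−0.35, edgeR adjusted p = 0.00468), its activator Map2k2 (−0.26, adjusted p = 0.0145) and Akt2 (−0.15, adjusted p = 0.0226). Of the genes named, Pik3cb, Mapk3, Map2k2 and Akt2 kept their calls with span offsets, and Prkcb and Mapk3 with library size. Map2k1, the paralogue of Map2k2, was not called, with a log2 fold change of 0.06.

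Of 16 genes of the CCM complex and its partners, 4 rose (25%) and 1 fell (6.25%), against 6.48% and 8.54% of all genes. Of these calls 3 are members chosen from this comparison, Heg1, Krit1 and Ccm2, so the count is not independent of the choice. The others were Stk24 (0.36, edgeR adjusted p = 0.0108), a kinase that binds PDCD10, and Strn3 (0.22, adjusted p = 0.036), a scaffold of the striatin complex in which PDCD10 also sits. With span offsets 2 genes of the list, Heg1 and Stk24, were called higher, and with library size Heg1 alone. Without the 4 rats with high striatal markers 7 genes of the list were called higher and 1 lower. Its median was then 0.21 in place of 0.07. Those called higher include the members Heg1, Krit1 and Pdcd10. Over all 16605 genes that fit called 1691 higher and 1673 lower. Map3k3, which encodes the kinase MEKK3 that CCM2 binds, had a log2 fold change of −0.03 and was not called.

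In the arm below the complex, 2 of 14 genes rose and 2 fell (14.3% each, against 6.48% and 8.54% of all genes). The kinases Rock1 (0.40, edgeR adjusted p = 0.01) and Rock2 (0.25, adjusted p = 0.0352) rose, and the small GTPase Rhob (−0.24, adjusted p = 0.0173) and the protease Adamts4 (−0.62, adjusted p = 0.0114) fell. Adamts4, which is also made by oligodendrocytes, is among the targets of MEKK3 signalling in endothelium. With span offsets Rock1 and Adamts4 kept their calls and Rock2 and Rhob lost theirs, and with library size only that of Adamts4 was kept.

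Klf2 and Klf4, the transcription factors that rise when the CCM complex is lost from endothelium, did not pass, with log2 fold changes of −0.07 (SE 0.22) and 0.11 (SE 0.19). Mapk7, the gene of the kinase ERK5 between MEKK3 and the KLF factors, was listed at 0 reads in every rat. Of the hypoxia list, 2 of 19 genes rose (10.5%) and 1 fell (5.26%), against 6.48% and 8.54% of all genes. The oxygen-responsive subunit Hif1a (0.20, edgeR adjusted p = 0.034) and the histone demethylase Kdm3a (0.25, adjusted p = 0.00773) rose, and the oxygen sensor Egln2 (−0.38, adjusted p = 0.00852) fell. With span offsets the call for Hif1a was lost, and with library size none of these 3 was called.

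None of the 12 angiopoietin, Notch and other angiogenic genes passed, and their median log2 fold change was −0.06.

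**Figure D4:**
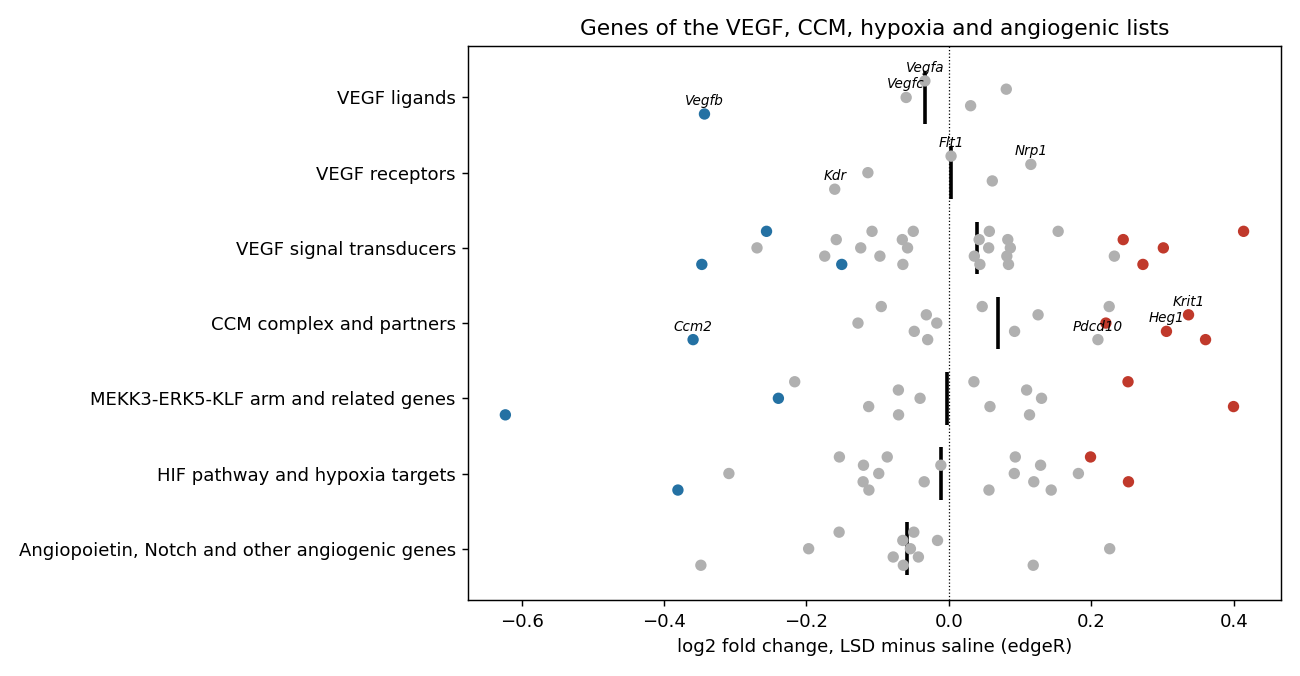
Log2 fold change, LSD against saline (horizontal axis), of each gene of 7 lists (rows), with the members named; red points were called higher, blue points lower and grey points were not called by edgeR, and black bars mark list medians. Ccm2 (−0.36) and Vegfb (−0.34) lie at the left of their lists while Heg1 (0.31) and Krit1 (0.34) lie at the right, and the list medians lie between −0.06 and 0.07.

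Of 16 endothelial markers, 1 rose (6.25%) and 2 fell (12.5%), against 6.48% and 8.54% of all genes. Egfl7 (−0.31, edgeR adjusted p = 0.0194) and Eng (−0.25, adjusted p = 0.0422) fell and Abcb1a (0.25, adjusted p = 0.0416) rose. The median log2 fold change was −0.11. With span offsets Abcb1a lost its call and the other 2 kept theirs. With library size all 3 lost theirs and 1 other endothelial marker was called lower. Without the 4 rats with high striatal markers 5 endothelial markers were called lower and none higher. Over all 16605 genes that fit called 1673 lower and 1691 higher. The summed level of the endothelial markers ranged from 435 RPM to 564 RPM in LSD rats (median 514) and from 482 RPM to 671 RPM in saline rats (median 564). Of 7 pericyte markers 1, Kcnj8, fell (14.3%, against 8.54% of all genes), at −0.45 (edgeR adjusted p = 0.0188). The median was −0.16.

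The summed level of the pericyte markers ranged from 152 RPM to 213 RPM in LSD rats and from 143 RPM to 239 RPM in saline rats, so the ranges overlapped for both vessel cell types. None of 5 smooth muscle markers passed (median −0.42), nor did any of 6 oligodendrocyte (median −0.35), 5 striatal neuron (median −0.61) or 6 microglial markers (median 0.05). With library size as a covariate, however, 4 of the oligodendrocyte (median −0.62) and 4 of the striatal markers (median −0.98) were called lower. Over all 16605 genes that fit called 639 lower. Without the 4 rats with high striatal markers 1 striatal marker was called lower and 1 microglial marker higher. Among the members, Kdr correlated within groups with the pericyte sum at r = 0.73 and Spearman's coefficient of 0.67 (permutation tests, adjusted p = 0.00933 and 0.0532), and Pdcd10 at r = −0.70 and Spearman's coefficient of −0.65 (permutation tests, adjusted p = 0.0185 and 0.0551). With the endothelial sum Kdr had r = 0.58 (permutation test, adjusted p = 0.107). Flt1 had r = 0.54 with the endothelial sum and 0.55 with the pericyte sum (permutation tests, adjusted p = 0.128 and 0.12). The r of Pdcd10 with library size was 0.81.

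Of 8 astrocyte markers Slc1a2 rose and Aldoc, the gene most like Ccm2, fell (−0.34, edgeR adjusted p = 0.00408), 12.5% each. Of 3 red blood cell genes 1 (33.3%), Hbb, fell (−0.50, edgeR adjusted p = 0.0434). Over all genes 6.48% rose and 8.54% fell. With span offsets the calls for Slc1a2 and Hbb were lost and that for Aldoc was kept. Ccm2 had r = −0.07 with the endothelial sum and Vegfb 0.39 (permutation tests, adjusted p = 0.841 and 0.369). In LSD and saline rats r was 0.42 and −0.24 for Ccm2, and 0.54 and 0.29 for Vegfb. Without the 2 rats farthest from the median of that sum r was 0.26 for Ccm2 and 0.56 for Vegfb. The part of vessel cell content in the differences of the members was not tested.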

How the data were processed

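RNA-seq libraries from the mPFC of 20 rats (10 LSD, 10 saline, grouped by their sample labels) were analysed. The deposited values are raw counts, made by the authors with TrimGalore for trimming, Hisat2 for alignment against rn6 and HTSeq-count for counting. Versions, annotation and strand setting are not given in the sources used here. The 5 entries without a gene name, which held 25.5% to 29.0% of the reads, were left out. No 2 libraries were identical. Depth was 11098076 to 25552681 reads on genes; with 1 library per rat, p-values measure the spread between rats.

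A gene was kept when 10 or more rats had 5 or more reads. Groups were compared by the quasi-likelihood test of edgeR 4.0.16 (R 4.3.3) on TMM-scaled libraries, and p-values were adjusted by Benjamini-Hochberg over all kept genes, with 0.05 as the threshold. RPM values are TMM-normalised. The test was checked on simulated counts. Alternatives were DESeq2 1.42.0, its size factors, scaling by total counts, other count filters, a replicate block, span offsets, 1 surrogate variable from sva 3.50.0, reads drawn to the smallest library and each rat left out; log2 library size as a covariate, and a fit without 4 rats whose summed striatal markers exceeded 350 RPM, were added after seeing the data. Correlations used log2(RPM + 1) centred within group and two-sided permutation tests with 100000 resamples.

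Spans came from GRCr8 and covered 89.9% of kept genes. The planned levels per exon length were not computed for lack of exon lengths, so levels are not compared between genes. The members and gene lists were chosen with earlier results of these data known. The genes named are all members, up to 4 called genes of smallest p per list, and the 5 genes most like Ccm2 and Vegfb; others were added after their values were seen. A few genes that this rule names are not reported here.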

Additional observations from a re-analysis of the deposited data

Results flagged for a closer look

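In 20 groups of 10 rats, 10 genes in each treatment, the highest and lowest rats were compared with their neighbours, and 3 stood apart by Dixon's criterion, where chance alone would give about 1 in 20. Flt1 was at 88.5 RPM in LSD replicate 4, with the next LSD rat at 77.1 RPM. Heg1 was at 90.0 RPM in LSD replicate 10, with the next at 77.5 RPM, and at 42.2 RPM in saline replicate 9, with the next at 55.2 RPM. The log2 fold change of Heg1 was 0.27 without LSD replicate 10 and 0.26 without saline replicate 9, and its call was kept in both. That of Flt1 was −0.03 without LSD replicate 4.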

How the results depend on the processing

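The fold changes of Heg1, Kdr and Nrp1 kept their direction and their side of the threshold in all 32 alternatives. Apart from the fits without a single rat, fold changes were −0.42 to −0.30 for Ccm2, −0.37 to −0.26 for Vegfb and 0.22 to 0.35 for Heg1. The members were chosen from this comparison, Ccm2 and Vegfb for their decrease. All fits use the same rats, so these ranges and calls are a description and no support. Genes called lower numbered 836 without the count filter, 858 with total count scaling and 639 with library size as a covariate, and those called higher 558 with span offsets, 534 with library size and 1691 without the 4 rats high in striatal markers, against 1418 and 1076. Leaving out a rat gave 907 to 1867 lower and 659 to 1681 higher. The lowest counts came without LSD replicate 8 (907 and 659), and genes called higher also moved most without saline replicate 2 (1681) and 4 (705). One member was called higher with span offsets, with drawn reads and with library size (1 each), and 1 to 3 when a rat was left out. Pathway genes called higher numbered 4 with span offsets, 5 with span offsets and the block and 1 with library size, and those called lower 3 with library size. Signs turned for Vegfa with total counts and with library size (0.014 and 0.015; −0.068 to 0.010 when a rat was left out), Vegfc with library size (0.026; −0.11 to 0.011), Flt1 with span offsets, also with the block (−0.099 and −0.098), and with library size (−0.011; −0.031 to 0.034) and without the 4 rats (−0.0093), and Pdcd10 with library size (−0.043). The cause was not tested. Whether the replicate numbers pair the rats was not tested. Same-numbered LSD and saline rats correlated at 0.15 on average, from −0.26 to 0.47, and 6 of 10 pairs exceeded 0.1. Rats with other numbers correlated at −0.02 on average. Only 1 of the 10 LSD rats was most like the saline rat of its own number. With the replicate block 1606 genes were called lower and 1355 higher, no member call changed, and the correlation of Ccm2 with Vegfb was 0.56. Depth limited Vegfc most.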

Other observations

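The relation of Vegfa to Heg1 had opposite signs in the treatment groups; the pair was picked from 45 for that reason, so no p-value is given. Over the 10 LSD rats r was −0.74 and Spearman's coefficient −0.64, and over the 10 saline rats they were 0.72 and 0.48. The size of r depended on single rats. LSD replicate 10 had the highest Heg1 and the lowest Vegfa (70.5 RPM) of its group, and saline replicate 9, one of the rats with high striatal markers, had the lowest of both (76.2 RPM for Vegfa) as well as the lowest Kdr and Nrp1. Without them r was −0.38 in LSD and 0.33 in saline rats, and Spearman's coefficient was −0.50 and 0.28. The difference between the groups was not tested.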
